A study of Mus musculus with 9 samples.

Results

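The genes described here encode the apoptosis machinery of the mouse eye. They were chosen by symbol: every gene named Casp, Birc, Aifm or Ripk followed by a digit, every gene whose symbol starts with Bcl2, and Bax, Bak1, Bid, Bik, Bad, Bok, Bbc3, Mcl1, Apaf1, Diablo, Endog, Xiap, Cflar, Fadd, Tradd and Fas. Of the 13089 genes listed, 42 were members, and all 42 passed the filter on low values described below. The data were RNA-seq profiles of poly(A) RNA from whole eyes of wild-type female mice, 4 weeks old, of the inbred strain A/J, the inbred strain BALB/c or the inbred strain C57BL/6J, strains that, per the series' design text, differ in how fast the retina degenerates. No engineered mutation or treatment was involved, and A/J and BALB/c mice are albino whereas C57BL/6J mice are pigmented. Each strain had 3 libraries, each made from RNA pooled over 5 mice, and A/J 1 denotes the library of A/J mice with replicate number 1. Whether a strain's libraries came from separate pools is not stated in the labels, so a p-value reflects only how much these libraries vary, and that variation may be technical. Because a whole eye is a mixture of cell types, fewer cells of a type and less RNA per cell cannot be told apart.

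Apoptosis is a programmed form of cell death in which caspases, a family of proteases, dismantle the cell. In the mitochondrial branch, relatives of Bcl2 decide whether Bax and Bak1 open pores in the outer mitochondrial membrane: Bcl2, Bcl2l1 and Mcl1 hold these pore formers in check, and the BH3-only proteins Bad, Bid, Bik, Bcl2l11 and Bbc3 release them. Open pores let out cytochrome c, which with Apaf1 activates Casp9, and Casp9 activates the caspases further down the cascade. In the death receptor branch, ligand-bound Fas recruits Fadd and Casp8, which Cflar restrains. Inhibitor of apoptosis proteins such as Xiap bind caspases, and Diablo released from mitochondria displaces them. In the retina this machinery removes surplus neurons during development and has been studied in photoreceptor loss.

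Members differed widely in base composition, and the differences between the A/J libraries described below followed it in part. As examples, the first 120 coding bases are given for 4 members. Xiap (36.8%) and Casp12 (37.3%) had the lowest GC content of their longest transcript, and Endog (64.3%) and Bbc3 (65.2%) the highest. The sequences are from GENCODE M21 transcripts of the GRCm38 build, written from the start codon, with G and C in capitals. Xiap lies on the plus strand of chromosome X, Casp12 on the plus strand of chromosome 9, Endog on the plus strand of chromosome 2 and Bbc3 on the plus strand of chromosome 7.
Xiap: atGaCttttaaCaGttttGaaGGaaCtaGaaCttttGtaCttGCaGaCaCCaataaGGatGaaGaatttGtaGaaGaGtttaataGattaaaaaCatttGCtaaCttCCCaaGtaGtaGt
Casp12: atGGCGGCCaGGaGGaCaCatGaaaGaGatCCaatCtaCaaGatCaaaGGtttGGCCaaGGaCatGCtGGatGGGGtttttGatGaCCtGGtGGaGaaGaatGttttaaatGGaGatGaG
Endog: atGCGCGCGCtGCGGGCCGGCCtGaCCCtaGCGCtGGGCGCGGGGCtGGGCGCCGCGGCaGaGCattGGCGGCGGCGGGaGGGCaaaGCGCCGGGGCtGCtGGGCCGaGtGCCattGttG
Bbc3: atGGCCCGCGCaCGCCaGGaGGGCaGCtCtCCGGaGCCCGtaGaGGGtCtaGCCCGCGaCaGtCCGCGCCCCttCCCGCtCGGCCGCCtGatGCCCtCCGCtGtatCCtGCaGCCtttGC
G and C made up 37 of the 120 bases in Xiap, 55 in Casp12, 93 in Endog and 86 in Bbc3.

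The deposited values were read as RPKM, reads scaled to gene length and library size, so levels of different genes can be set side by side, though only roughly. The gene models behind the lengths are not given, and libraries differed in their trend with GC content. For testing, each value was divided by a scaling factor of its library, 0.5 was added and log2 was taken; log2 changes below are on this scale, which understates the change of low genes. Testing was limited to genes at 1 RPKM or more in 3 or more libraries, which 12920 genes were, and the threshold for a call was an adjusted p under 0.05 (limma, Benjamini-Hochberg over all genes tested). The sum of RPKM over all genes ranged from 511888 to 599635 per library. The depth is unknown. Eye genes were abundant throughout, with the lens crystallin Cryaa at 18391 to 53089 RPKM and the corneal keratin Krt12 at 1632 to 3015 RPKM. Libraries of a strain did not vary alike. The within-strain SD of a gene had a median of 0.26 on the log2 scale in A/J, 0.1 in BALB/c eyes and 0.25 in C57BL/6J eyes over all genes tested, and of 0.25, 0.085 and 0.24 over the 42 members. Along the leading principal component (49.1% of the variance), A/J 1 and A/J 2 stood at -42.4 and -51.4, A/J 3 at 7.34, C57BL/6J 3 at 56.4 and the other libraries between -7.82 and 14.8. A/J 3 thus lay among the other libraries, whereas A/J 1, A/J 2 and C57BL/6J 3 lay apart. Results are therefore also given without A/J 1 and A/J 2. They are given too without A/J 3, alone or with C57BL/6J 3, which keeps the A/J pair that lay apart.

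No member passed the test of a difference between strains. The limma test called 0 of the 42 members in A/J minus C57BL/6J, where it called 2.69% of all genes. It called 0 members in BALB/c minus C57BL/6J, where it called 3.09% of all genes, and 0 members in A/J minus BALB/c, where it called 2.48% of all genes. An F test over the 3 strains also called 0 members, against 4.47% of all genes. At an unadjusted p under 0.05 there were 5 members (11.9%) in A/J minus C57BL/6J, where 17.5% of all genes passed, and 4 members (9.52%) in BALB/c minus C57BL/6J, where 13.8% passed. There were 11 members (26.2%) in A/J minus BALB/c, where 20.9% of all genes passed, and in the F test 10 members (23.8%), where 20.3% passed. The median log2 change of the members was -0.01, 0.03 and -0.04 in these comparisons in the same order, and that of all genes was -0.01 in each. The errors, estimated for each gene from the libraries of all 3 strains, bound what the data can show for each member. The 95% confidence interval lay within 1 on the log2 scale for 33 members in A/J minus C57BL/6J, for 35 in BALB/c minus C57BL/6J and for 35 in A/J minus BALB/c, against 74%, 82.4% and 73.8% of all genes. Bak1, Casp12, Endog, Fas and Xiap reached outside that range in every comparison, so changes larger than 1 lay within their intervals.

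**Figure D1:**
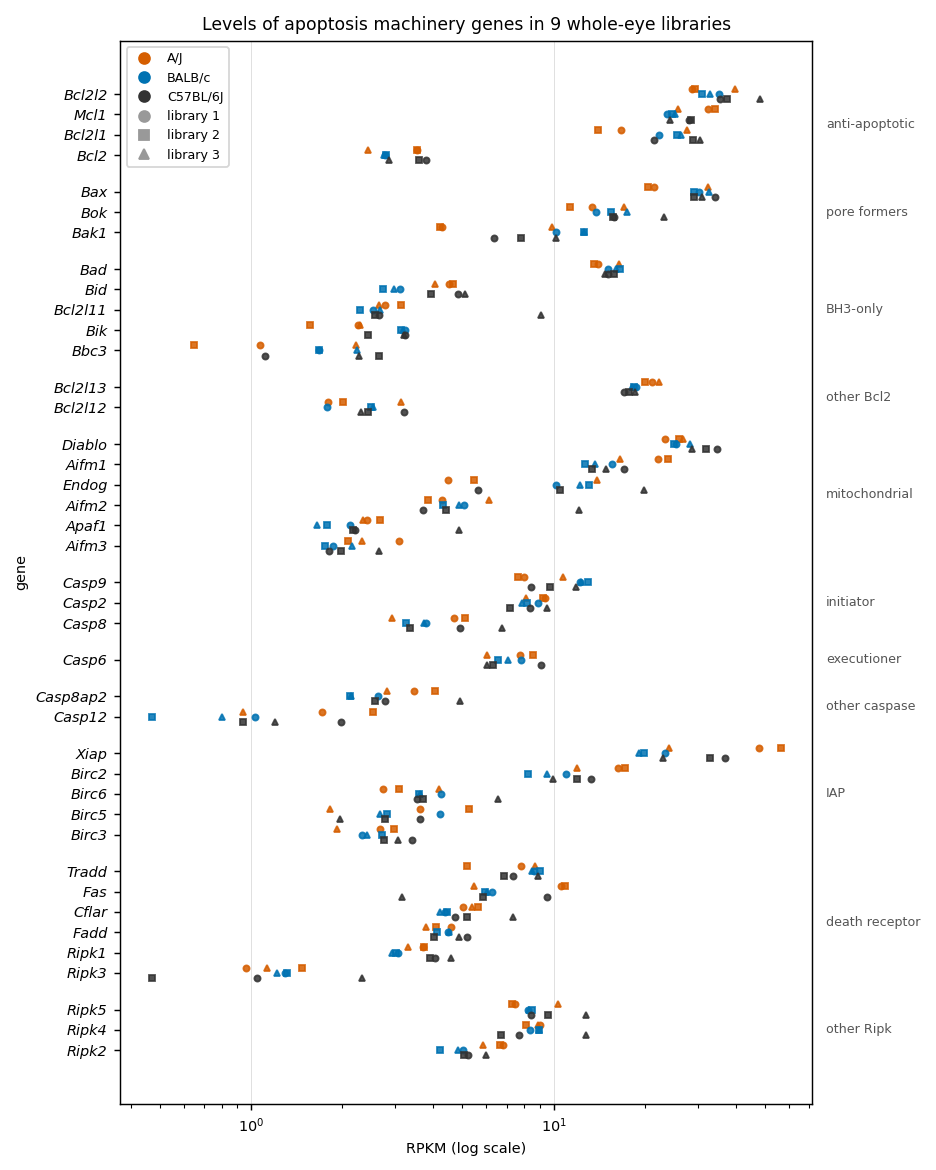
RPKM (log axis) of 40 of the genes in the 9 libraries, grouped by role. Colours mark strains, symbols mark replicate numbers, and each row spans from the lowest to the highest library, for example 19.1 to 56.2 RPKM for Xiap.

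Levels spanned a wide range. Over the 9 libraries the highest means were those of Bcl2l2 at 35.3 RPKM, Xiap at 31.5, Bax at 28.9, Diablo at 27.8, Mcl1 at 27.4 and Bcl2l1 at 23.7 RPKM, the 6 members with a mean of at least 20 RPKM. At the other end 8 members had a mean under 3 RPKM, among them the BH3-only gene Bbc3 at 1.73, Casp12 at 1.29 and the necroptosis kinase Ripk3 at 1.25 RPKM. The median member stood at 6.7 RPKM and the median listed gene at 9.27 RPKM, and no member was listed at 0 in any library. The most abundant members thus came from opposing roles, with the restraining Bcl2l2, Mcl1, Bcl2l1 and Xiap beside the pore former Bax and the releasing Diablo.

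Among the anti-apoptotic relatives of Bcl2, Bcl2l2, which protects neurons and germ cells, had 28.7, 29.2 and 39.9 RPKM in A/J eyes, 35.2, 30.97 and 32.8 in BALB/c eyes, and 35.4, 37.4 and 48.1 in C57BL/6J eyes. As deposited, all 3 BALB/c libraries were below the C57BL/6J ones, but after scaling the libraries of these strains overlapped, with a log2 change of -0.10 (adjusted p = 0.87, limma). The A/J libraries overlapped both strains, and C57BL/6J 3 was highest. Bcl2l1, which encodes the neuronal survival protein Bcl-xL, had 16.7, 13.99 and 27.7 RPKM in A/J eyes, against 22.3, 25.5 and 26.4 in BALB/c eyes and 21.4, 28.9 and 30.4 in C57BL/6J eyes. A/J 1 and A/J 2 were lowest and A/J 3 lay among the libraries of the other strains, giving a log2 change of -0.39 ± 0.24 (SE) in A/J minus C57BL/6J (limma adjusted p = 0.35). Mcl1, a short-lived guardian of Bak1, averaged 30.8 ± 4.39 RPKM in A/J eyes, 24.5 ± 0.668 in BALB/c eyes and 26.9 ± 2.27 in C57BL/6J eyes (SD, n = 3 each). Bcl2 itself was far less abundant than Bax, at 2.43 to 3.54 RPKM in A/J eyes, 2.75 to 2.80 in BALB/c eyes and 2.86 to 3.78 in C57BL/6J eyes. Across the 4 genes the median log2 change was -0.1 in A/J minus C57BL/6J, -0.02 in BALB/c minus C57BL/6J and 0 in A/J minus BALB/c.

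The pore formers were led by Bax, which had 21.4, 20.5 and 32.4 RPKM in A/J eyes, 30.2, 29.03 and 32.6 in BALB/c eyes, and 34.2, 29.2 and 30.8 in C57BL/6J eyes. A/J 1 and A/J 2 stood below all other libraries, whereas A/J 3 was as high as BALB/c and C57BL/6J eyes. Bok, a relative that acts in part at the endoplasmic reticulum, ranged from 11.4 to 17.1 RPKM in A/J eyes, from 13.8 to 17.5 in BALB/c eyes and from 15.8 to 23.2 in C57BL/6J eyes. The widest relative spread of the 3 was that of Bak1, the resident pore former of the outer mitochondrial membrane, with 4.29, 4.21 and 9.9 RPKM in A/J eyes, against 10.2, 12.6 and 12.6 in BALB/c eyes and 6.37, 7.83 and 10.2 in C57BL/6J eyes. BALB/c libraries were above all A/J libraries, with A/J 3 just under the lowest of them, and overlapped C57BL/6J only through C57BL/6J 3. The log2 change of Bak1 was -1.06 ± 0.29 (SE; adjusted p = 0.11, limma) in A/J minus BALB/c, the lowest value among the 42 members. In BALB/c minus C57BL/6J it was 0.70 ± 0.29 (adjusted p = 0.33), and in A/J minus C57BL/6J -0.36 ± 0.29 (adjusted p = 0.46). Bak1 shares 20.4% of its transcript sequence, counted in stretches of 31 bases, with other genes, chiefly Ggnbp1.

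BH3-only genes pointed in different directions. Bad, which growth factor signals hold inactive, was the most abundant, with 14.1, 13.6 and 16.4 RPKM in the A/J libraries, 15.1, 16.6 and 16.1 in those of BALB/c and 15.2, 15.9 and 14.8 in those of C57BL/6J, and its groups overlapped. Bid, which links death receptors to mitochondria, had 4.51, 4.66 and 4.07 RPKM in A/J eyes, 3.1, 2.73 and 2.98 in BALB/c eyes, and 4.85, 3.94 and 5.1 in C57BL/6J eyes. All 3 BALB/c libraries were below all A/J and all C57BL/6J libraries, while A/J and C57BL/6J overlapped. For Bid the log2 change was -0.41 ± 0.13 (SE; adjusted p = 0.15, limma) in BALB/c minus C57BL/6J and 0.46 ± 0.13 (adjusted p = 0.11) in A/J minus BALB/c.

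Bik, a BH3-only protein of the endoplasmic reticulum, had 2.25, 1.57 and 2.3 RPKM in A/J eyes, against 3.22, 3.13 and 3.19 in BALB/c eyes and 3.24, 2.44 and 3.21 in C57BL/6J eyes. The A/J libraries were all below those of both other strains, with a log2 change of -0.61 ± 0.15 (SE; adjusted p = 0.084, limma) against BALB/c and of -0.36 ± 0.15 (adjusted p = 0.27) against C57BL/6J. The first of these is the smallest adjusted p of any member. Once the trend of each library with GC content was removed, the changes of Bik were -0.24 ± 0.20 (adjusted p = 0.56) against BALB/c and -0.03 ± 0.20 (adjusted p = 0.93) against C57BL/6J. That step did not bring the A/J libraries together for Bik. The mean of A/J 1 and A/J 2 minus A/J 3 was -0.20 on the log2 scale before it and 0.50 after it. Bcl2l11, which encodes Bim, a death trigger in neurons deprived of growth factors, had 2.78, 3.12 and 2.65 RPKM in the A/J libraries, 2.54, 2.3 and 2.67 in those of BALB/c and 2.64, 2.57 and 9.09 in those of C57BL/6J. A single library, C57BL/6J 3, stood at 9.09 RPKM and the other 8 lay between 2.3 and 3.12 RPKM. Bbc3, a p53 target that encodes Puma, was low everywhere, with 1.07, 0.65 and 2.23 RPKM in A/J eyes, 1.68, 1.68 and 2.24 in BALB/c eyes, and 1.11, 2.64 and 2.28 in C57BL/6J eyes, and all strains overlapped. Both Bcl2 relatives without a settled role were steady or low: Bcl2l13, a mitochondrial protein, had 21.2, 20.02 and 22.3 RPKM in A/J eyes, against 18.7, 18.5 and 18.2 in BALB/c eyes and 17.1, 17.7 and 18.6 in C57BL/6J eyes, and Bcl2l12 stayed between 1.79 and 3.21 RPKM. For Bcl2l12 28.1% of the transcript's stretches of 31 bases are shared with other genes, chiefly Gm15545 and Irf3, so its level is uncertain. For Bcl2l13 the A/J libraries were all above the others (log2 change 0.35 ± 0.11 against C57BL/6J, adjusted p = 0.16).

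**Figure D2:**
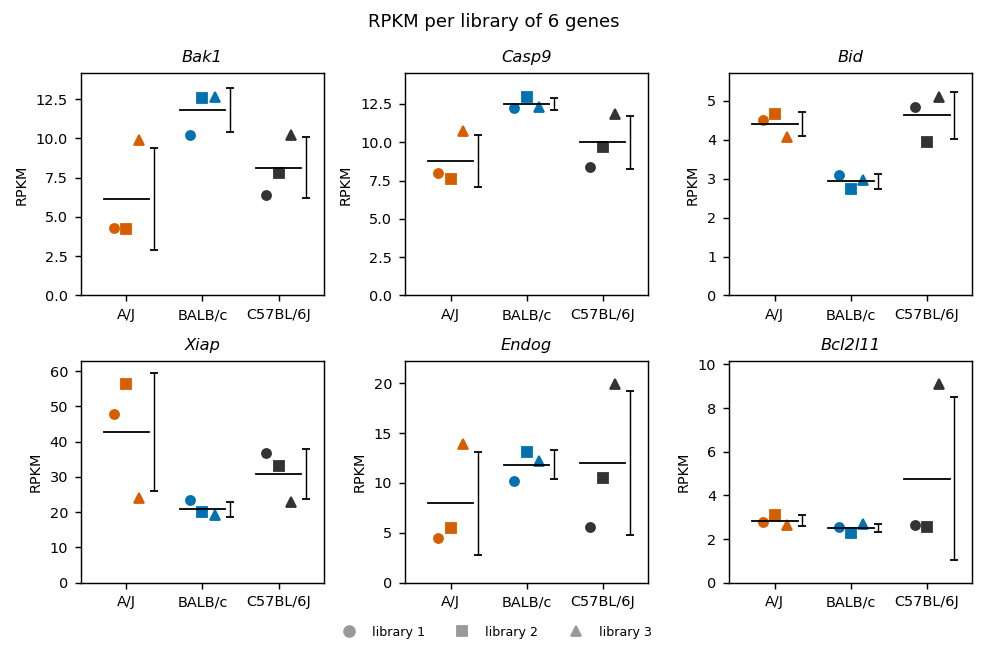
RPKM per library of Bak1, Casp9, Bid, Xiap, Endog and Bcl2l11, with replicate numbers as symbols, the mean as a line and the SD as a bar (n = 3). BALB/c libraries lie between 12.3 and 12.95 RPKM for Casp9, above all others, while A/J 1 and A/J 2 depart from A/J 3 for Bak1, Xiap and Endog, and C57BL/6J 3 from its group for Endog and Bcl2l11.

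Downstream of the mitochondrial pores, Diablo had 23.4, 25.98 and 26.8 RPKM in the A/J libraries, 25.4, 25.04 and 28.2 in those of BALB/c and 34.6, 31.9 and 28.7 in those of C57BL/6J. Its C57BL/6J libraries were all above those of the other strains, C57BL/6J 3 only just (log2 change -0.20 ± 0.14, SE, in A/J minus C57BL/6J; adjusted p = 0.39, limma). After scaling they overlapped with both other strains, and 39.6% of the Diablo sequence is shared with other transcripts, chiefly B3gnt4. Apaf1, the scaffold that assembles Casp9, had 2.42, 2.67 and 2.35 RPKM in A/J eyes, 2.13, 1.78 and 1.65 in BALB/c eyes, and 2.2, 2.17 and 4.87 in C57BL/6J eyes. BALB/c eyes were lowest, and C57BL/6J 3 alone was above 3 RPKM. Aifm1, a flavoprotein of the mitochondrial intermembrane space that can move to the nucleus, had 22.1, 23.9 and 16.6 RPKM in A/J eyes, against 15.6, 12.7 and 13.7 in BALB/c eyes and 17.1, 13.4 and 14.9 in C57BL/6J eyes. A/J 1 and A/J 2 were highest, and the 3 A/J libraries overlapped with C57BL/6J through A/J 3.

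Endog, a mitochondrial nuclease, was the member that varied most between A/J libraries (SD 0.8 on the log2 scale), with 4.48, 5.46 and 13.9 RPKM in the A/J libraries, 10.2, 13.1 and 12.2 in those of BALB/c and 5.62, 10.5 and 19.9 in those of C57BL/6J. In A/J and in C57BL/6J eyes its lowest and highest libraries were further apart than the strain means were, and the log2 change of -0.77 ± 0.45 in A/J minus BALB/c had an adjusted p of 0.32 (limma). It shares 34.1% of its sequence with other transcripts, chiefly Spout1, and the cDNA was not stranded, so reads from overlapping genes cannot be told apart. Aifm2 ranged from 3.86 to 6.11 RPKM in A/J eyes and from 4.32 to 5.05 in BALB/c eyes, and reached 12.1 RPKM only in C57BL/6J 3. Aifm3 stayed between 1.75 and 3.09 RPKM.

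Initiator caspases start the cascade. Casp9, which the apoptosome activates, had 7.96, 7.6 and 10.7 RPKM in A/J eyes, 12.3, 12.95 and 12.3 in BALB/c eyes, and 8.41, 9.71 and 11.9 in C57BL/6J eyes. The 3 BALB/c libraries were close together and above all libraries of the other strains. Its log2 change was 0.49 ± 0.15 (SE; adjusted p = 0.16, limma) in BALB/c minus C57BL/6J and -0.57 ± 0.15 (adjusted p = 0.10) in A/J minus BALB/c. Casp8, the death receptor caspase, ranged from 2.92 to 5.10 RPKM in A/J eyes, from 3.25 to 3.78 in BALB/c eyes and from 3.35 to 6.76 in C57BL/6J eyes, and Casp2 from 7.16 to 9.51 RPKM over all libraries.

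Casp6, a caspase that cleaves nuclear lamins, overlapped among strains, between 6.01 and 9.08 RPKM, with a mean of 7.23 RPKM. Casp12, which sits at the endoplasmic reticulum, was near the lower limit, with 1.72, 2.53 and 0.94 RPKM in A/J eyes, 1.03, 0.47 and 0.8 in BALB/c eyes, and 1.99, 0.94 and 1.2 in C57BL/6J eyes. It averaged 1.73 RPKM in A/J eyes, 0.767 in BALB/c eyes and 1.38 in C57BL/6J eyes, and its strains overlapped. Casp8ap2, whose product binds Casp8 and also serves histone gene expression, had 3.47, 4.05 and 2.82 RPKM in A/J eyes, against 2.63, 2.12 and 2.14 in BALB/c eyes and 2.77, 2.57 and 4.92 in C57BL/6J eyes. A/J libraries were above BALB/c ones, and C57BL/6J 3 was the highest library. Its log2 change was 0.43 ± 0.20 in A/J minus BALB/c (adjusted p = 0.25, limma).

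Inhibitor of apoptosis genes were led by Xiap, the member best known for binding caspases such as Casp9 directly, with 47.8, 56.2 and 24.1 RPKM in the A/J libraries, 23.3, 19.9 and 19.1 in those of BALB/c and 36.8, 32.95 and 23.01 in those of C57BL/6J. A/J 1 and A/J 2 were the highest libraries, but A/J 3 was below C57BL/6J 1 and C57BL/6J 2 and just above BALB/c 1. The log2 change of Xiap was 0.87 ± 0.33 (SE; adjusted p = 0.19, limma) in A/J minus BALB/c, the highest among the members, and 0.51 ± 0.33 (adjusted p = 0.37) in A/J minus C57BL/6J. Birc2, a ubiquitin ligase of the TNF receptor complex, had 16.4, 17.2 and 11.97 RPKM in A/J eyes, 11.01, 8.21 and 9.53 in BALB/c eyes, and 13.3, 11.9 and 9.92 in C57BL/6J eyes. It showed the same order of libraries within A/J, with a log2 change of 0.56 ± 0.20 (adjusted p = 0.18) in A/J minus BALB/c. Its close relative Birc3 stayed between 1.92 and 3.4 RPKM, and Birc6, a very large ubiquitin ligase, between 2.73 and 6.56 RPKM.

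Birc5, known as survivin and needed for cell division, ranged from 1.83 to 5.27 RPKM in A/J eyes, from 2.66 to 4.20 in BALB/c eyes and from 1.97 to 3.61 in C57BL/6J eyes. Beside it, the summed level of the 7 listed of 10 markers of proliferating cells was 18.7, 20.5 and 9.36 RPKM in A/J eyes, 13.3 to 13.9 in BALB/c eyes and 12.4 to 17.5 in C57BL/6J eyes. Both were lowest in A/J 3 and highest in A/J 2, and the part of proliferating cells in the Birc5 values was not tested.

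In the death receptor group, Tradd, the adaptor of the TNF receptor, had the highest mean, with 7.78, 5.17 and 8.7 RPKM in A/J eyes, against 8.62, 9.01 and 8.51 in BALB/c eyes and 7.34, 6.88 and 8.91 in C57BL/6J eyes. Its strains overlapped, A/J 2 being the lowest library. Fas, the receptor itself, had 10.5, 10.9 and 5.45 RPKM in the A/J libraries, 6.28, 5.92 and 6.02 in those of BALB/c and 9.54, 5.86 and 3.16 in those of C57BL/6J. Values above 9 RPKM were found only in A/J 1, A/J 2 and C57BL/6J 1, and the lowest value was that of C57BL/6J 3. The log2 change of 0.66 ± 0.39 (SE) in A/J minus C57BL/6J, the highest of that comparison, had an adjusted p of 0.35 (limma). The adaptor Fadd stayed between 3.78 and 5.16 RPKM and Cflar, the Casp8 inhibitor, between 4.21 and 7.34 RPKM. Ripk1, the kinase that switches TNF signalling between survival and death, was chosen after its values were seen: it had 3.7, 3.73 and 3.3 RPKM in A/J eyes, 3.06, 3.01 and 2.92 in BALB/c eyes, and 4.06, 3.9 and 4.58 in C57BL/6J eyes, with no overlap among the 3 strains. Its changes were small, at -0.10 ± 0.12 in A/J minus C57BL/6J (adjusted p = 0.59), -0.26 ± 0.12 in BALB/c minus C57BL/6J (adjusted p = 0.37) and 0.16 ± 0.12 in A/J minus BALB/c (adjusted p = 0.41). Ripk3 ranged from 0.47 to 2.32 RPKM, with both extremes in C57BL/6J eyes.

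Ripk kinases outside that group had middling levels. The highest was the gene listed as Ripk5, now called Dstyk, with 7.45, 7.28 and 10.3 RPKM in A/J eyes, against 8.23, 8.47 and 8.27 in BALB/c eyes and 8.41, 9.61 and 12.8 in C57BL/6J eyes. Ripk4, which acts in surface epithelium, ranged from 8.08 to 9 RPKM in A/J eyes, from 8.38 to 8.96 in BALB/c eyes and from 6.71 to 12.8 in C57BL/6J eyes. Ripk2, which relays signals of the bacterial sensors Nod1 and Nod2, averaged 6.43 ± 0.508 RPKM in A/J eyes, 4.7 ± 0.421 in BALB/c eyes and 5.42 ± 0.501 in C57BL/6J eyes (SD, n = 3 each). Its A/J libraries were all above its BALB/c libraries, and the log2 change was 0.35 ± 0.13 (adjusted p = 0.18, limma).

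**Figure D3:**
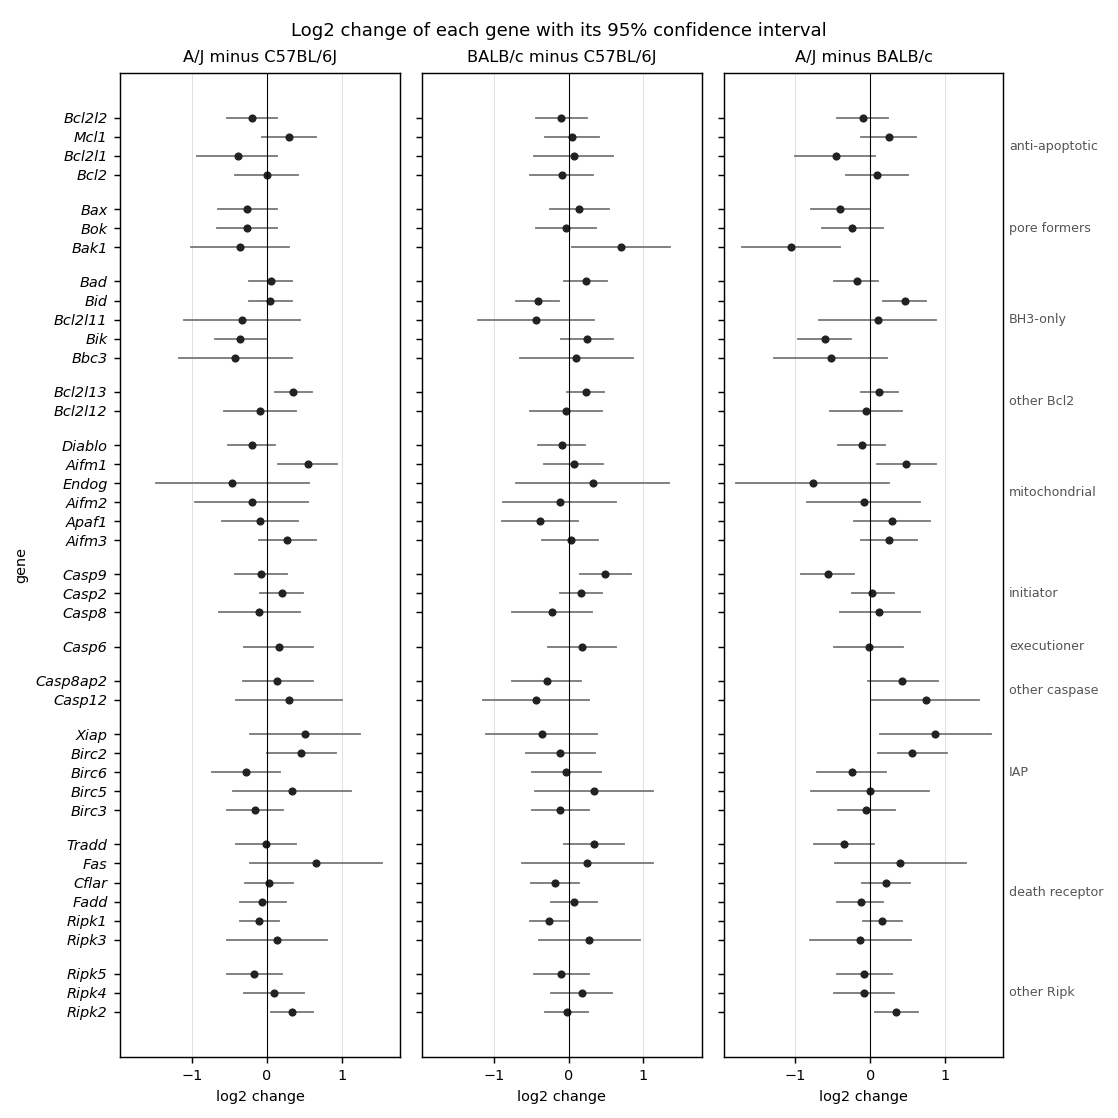
Log2 change of 40 of the genes (points) with its 95% confidence interval (bars) in the comparisons named above the panels. No gene plotted was called, and the points run from -1.06 for Bak1 to 0.87 for Xiap, both in A/J minus BALB/c.

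Taken by role, no gene of any group was called. In A/J minus C57BL/6J the median log2 change was -0.27 for Bax, Bak1 and Bok, -0.33 for the 5 BH3-only genes and 0.34 for the 5 inhibitor of apoptosis genes. In A/J minus BALB/c the pore formers had a median of -0.40 and the BH3-only genes of -0.18, while the inhibitors stood at 0. In BALB/c minus C57BL/6J the same 3 groups had medians of 0.14, 0.10 and -0.11. The death receptor group lay between 0.01 and 0.16 in the 3 comparisons and the initiators between -0.08 and 0.17. For the 6 genes of the apoptosome and mitochondrial release the medians were -0.14 in A/J minus C57BL/6J, -0.03 in BALB/c minus C57BL/6J and 0.08 in A/J minus BALB/c. The median of all genes was -0.01 in each comparison. These role medians did not hold across settings. With the GC trend removed, the pore formers stood at 0.11, the BH3-only genes at 0.07 and the inhibitors at 0.08 in A/J minus C57BL/6J, so the sign of both death-promoting groups turned. The same step gave 0.12, 0.05 and -0.13 for these groups in A/J minus BALB/c, where the signs of the pore formers and BH3-only genes turned as well. It did not bring the A/J libraries together for each pore former. The mean of A/J 1 and A/J 2 minus A/J 3 went from -0.57 to 0.44 for Bax and from -0.41 to 0.41 for Bok. For Bak1 it went from -1.09 to -0.58. The corrected medians carry this limit. Without A/J 1 and A/J 2 the medians in A/J minus C57BL/6J were 0.11, -0.10 and -0.26, the sign of the pore formers and of the inhibitors being reversed.

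Some members had libraries of a pair of strains that did not overlap at all. In A/J minus C57BL/6J this held for 5 members (11.9%) and 16.3% of all genes. In every A/J library 2 members were higher, Bcl2l13 among them, against 5.26% of all genes, and Bik, Diablo and Ripk1 were lower (3 members, against 11%). In BALB/c minus C57BL/6J it held for 11 members (26.2%) and 33.4% of all genes. In every BALB/c library 2 members were higher, Casp9 among them, against 6% of all genes, and Apaf1, Bcl2, Bcl2l2, Bid, Birc3, Cflar, Diablo, Ripk1 and Ripk2 were lower (9 members, against 27.4%). In A/J minus BALB/c it held for 15 members (35.7%) and 33.1% of all genes. Bak1, Bik and Casp9 were lower in every A/J library (3 members, against 9.78% of all genes), and 12 members were higher (against 23.3%), among them Aifm1, Apaf1, Bcl2l13, Bid, Birc2, Casp8ap2, Cflar, Mcl1, Ripk1, Ripk2 and Xiap. The directions depended on the scaling of the libraries. On scaled values, a comparison added after the data were seen, 4 members were higher and 2 lower in A/J minus C57BL/6J, against 8.44% and 7.95% of all genes. Scaled values had 8 higher and 2 lower in BALB/c minus C57BL/6J, against 13.4% and 11.7% of all genes. There Apaf1, Bcl2, Bcl2l2, Birc3, Cflar, Diablo and Ripk2 overlapped once scaled, while Bad, Bak1, Bcl2l13, Bik, Casp2 and Tradd came to lie higher in every BALB/c library. For A/J minus BALB/c 10 were higher and 6 lower, against 15.6% and 13.6% of all genes, and Mcl1 and Xiap overlapped once scaled.

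Ratios between opposing genes were described in each library. The level of Bax was 6.05, 5.79 and 13.3 times that of Bcl2 in A/J eyes, 10.9, 10.4 and 11.9 times in BALB/c eyes, and 9.04, 8.15 and 10.8 times in C57BL/6J eyes. The lowest and the highest ratio thus came from the same strain. Transcript GC content is 63.5% for Bax and 46.3% for Bcl2. The part that the GC trend between the A/J libraries, described below, has in this ratio was not tested. Against Bcl2l1, Bax was 1.28, 1.46 and 1.17 times as high in A/J, 1.36, 1.14 and 1.23 times in BALB/c eyes, and 1.6, 1.01 and 1.01 times in C57BL/6J eyes, with all strains overlapping.

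Differences between libraries of A/J reached further than any difference between strains. The mean of A/J 1 and A/J 2 minus A/J 3 came to -1.36 on the log2 scale for Endog, -1.09 for Bak1, -0.99 for Bbc3, -0.79 for Bcl2l1 and -0.57 for Bax. At the other end it was 1.13 for Xiap, 1.1 for Birc5, 0.96 for Fas and 0.88 for Casp12. These differences followed base composition in part. Of the 19 members with a transcript GC content of at least 50%, 15 were lower in those A/J libraries than in A/J 3. Of the 23 members under 50%, 20 were higher. Across the 42 members the correlation with GC content was -0.80 (Pearson) and -0.75 (Spearman). Across 12695 genes it was -0.69 and -0.70. These are correlations across genes that share the same libraries, given as a description. With the trend of each library with GC content removed, the difference was -0.29 for Endog, -0.58 for Bak1 and -0.37 for Bcl2l1. It was 0.14 for Bbc3 and 0.44 for Bax, both of which changed sign. For Xiap it was then 0.32, for Birc5 0.91, for Fas 0.55 and for Casp12 0.1.

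**Figure D4:**
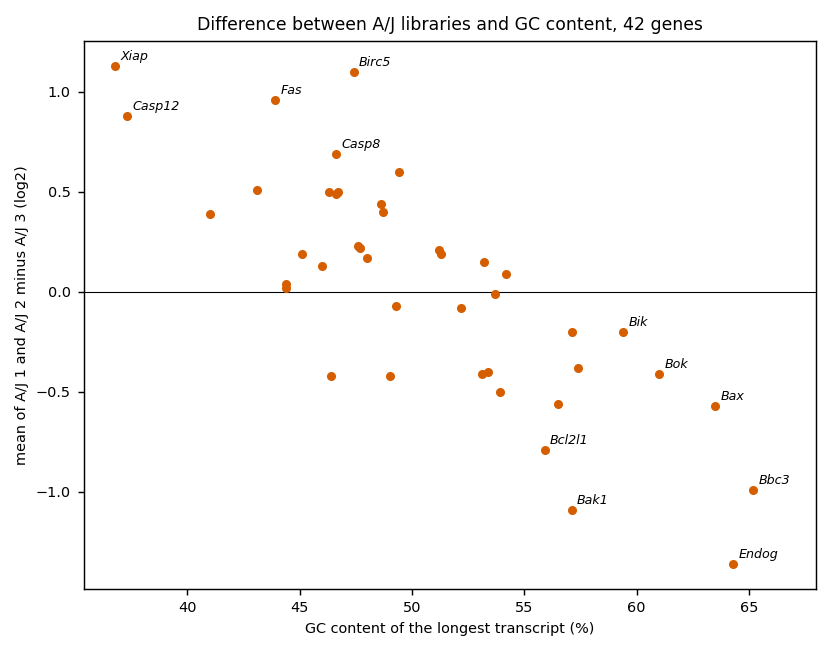
Mean log2 value of A/J 1 and A/J 2 minus A/J 3 against the GC content of the longest transcript, 1 point per gene, 42 genes. The points fall from 1.13 for Xiap at 36.8% GC to -1.36 for Endog at 64.3% GC (Pearson correlation -0.80).

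A library of C57BL/6J stood apart as well, on the opposite side of the leading component (56.4) from A/J 1 and A/J 2 (-42.4 and -51.4). C57BL/6J 3 exceeded the mean of C57BL/6J 1 and C57BL/6J 2 by more than 1 on the log2 scale for 4 members: Bcl2l11 (1.45), Aifm2 (1.30), Endog (1.13) and Ripk3 (1.05), as did 7.52% of all genes. For Fas the difference was -1.28 and for Xiap -0.76. The correlation of this difference with GC content was 0.29 across the 42 members and 0.30 across all genes (Pearson). C57BL/6J 3 also had the lowest sum over 8 lens markers, 47600 RPKM, against 74100 and 91700 in C57BL/6J 1 and C57BL/6J 2, and the part of lens tissue in its values was not tested.

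Members were called, at shares below those of all genes, in fits without A/J 3, alone or together with C57BL/6J 3. Such fits keep A/J 1 and A/J 2, which lay apart on the leading component. Their spread within A/J is that of this pair alone. Without A/J 3, 9 members (21.4%) were called in A/J minus C57BL/6J, where 28.3% of all genes were. The 6 that rose included Xiap, by 0.89 (adjusted p = 0.032, limma), Aifm1 by 0.72, Birc2 by 0.63, Ripk2 by 0.41 and Bcl2l13 by 0.33, and the 3 that fell were Bak1 (-0.72, adjusted p = 0.025), Bcl2l1 (-0.66) and Bax (-0.44). In A/J minus BALB/c 13 members (31%) were called, against 34.6% of all genes. The 7 that rose included Xiap (1.25), Casp12 (1.03), Birc2 (0.74), Aifm1 (0.65), Bid (0.52) and Ripk2 (0.43), and Bak1 (-1.42), Endog (-1.22), Bcl2l1 (-0.72), Casp9 (-0.70), Bik (-0.67) and Bax (-0.59) fell. In BALB/c minus C57BL/6J only Bak1 was called (0.70 ± 0.15, SE; adjusted p = 0.042, limma), against 4.95% of all genes. Its change was also 0.70 with A/J 3 kept, and only the error, estimated over all strains in the fit, differed (SE 0.29). With BALB/c and C57BL/6J fitted alone it was 0.70 ± 0.17 (adjusted p = 0.091, limma). Without A/J 1 and A/J 2, by contrast, 0 members were called in any comparison, and A/J 3 minus BALB/c, where A/J 3 is assumed to vary like the other strains, was -0.35 for Bak1 and 0.10 for Xiap. With both A/J 3 and C57BL/6J 3 left out, 13 members (31%) were called in A/J minus C57BL/6J, against 39.7% of all genes. In BALB/c minus C57BL/6J there were 5 (11.9%), against 14.9%, and in A/J minus BALB/c 23 (54.8%), against 59.9%. The F test called 11 members (26.2%) without A/J 3, against 33% of all genes, and 22 (52.4%) without both, against 61.7%.

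Casp9 and Bak1 were the members called when the trend of each library with GC content was removed instead. With all 9 libraries kept, Casp9 was higher in BALB/c than in C57BL/6J by 0.46 ± 0.10 (SE; adjusted p = 0.032, limma) and lower in A/J eyes than in BALB/c eyes, at -0.43 ± 0.10 (adjusted p = 0.049), and Bak1 was lower in A/J eyes than in BALB/c eyes, at -0.77 ± 0.16 (adjusted p = 0.037). These were 1 member in BALB/c minus C57BL/6J, where 4.43% of genes were called, and 2 in A/J minus BALB/c, where 3.53% were. In A/J minus C57BL/6J 0 members and 4.03% of genes were called, and in the F test 2 members and 6.53% of genes. Bid was not called, at -0.43 ± 0.12 in BALB/c minus C57BL/6J (adjusted p = 0.078) and 0.50 ± 0.12 in A/J minus BALB/c (adjusted p = 0.054). For Bak1 the mean of A/J 1 and A/J 2 minus A/J 3 was still -0.58 with the trend removed. In the uncorrected fit without A/J 1 and A/J 2, the change of Bak1 in A/J minus BALB/c was -0.35. The change of Xiap in A/J minus BALB/c was 0.35 after the GC step and that of Endog -0.22. The median within-strain SD of the members was 0.17 in A/J eyes, 0.081 in BALB/c eyes and 0.25 in C57BL/6J after it. Before it these were 0.25, 0.085 and 0.24, so the members of C57BL/6J did not narrow. Over all genes the medians after it were 0.18, 0.081 and 0.21.

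Genes that act around the members were described from 7 lists of related pathways, 150 genes tested in all. Of these, 5 (3.33%) were called in A/J minus C57BL/6J, near the 2.69% of all genes. In BALB/c minus C57BL/6J 1 (0.667%) was called, against 3.09% of all genes, and in A/J minus BALB/c 0, against 2.48%. At an unadjusted p under 0.05 there were 25 (16.7%), 10 (6.67%) and 21 (14%) in the same order of comparisons, each share below the 17.5%, 13.8% and 20.9% of all genes. The called genes below are given as single genes, not as a result about their lists. The lists of the mitochondrial pathway (27 genes tested), the p53 pathway (29), caspase substrates and nucleases (23) and endoplasmic reticulum stress (20) had 0 genes called in any comparison. Their median log2 changes ran from -0.09 to 0.28, against -0.01 for all genes.

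Zbp1, a sensor of unusual nucleic acids that triggers necroptosis through Ripk3, was the clearest of the called genes. It had 3.35, 3.38 and 4.01 RPKM in A/J eyes, 2.54, 2.47 and 2.54 in BALB/c eyes and 1.29, 0.71 and 1.28 in C57BL/6J eyes. Every C57BL/6J library was below every library of the other strains, and every A/J library was above every BALB/c library. The log2 change was 1.46 ± 0.16 (SE; adjusted p = 0.00099, limma) in A/J minus C57BL/6J and 1.08 ± 0.16 (adjusted p = 0.0059) in BALB/c minus C57BL/6J, and it was called in both under all alternatives run. Zbp1 is induced by interferon, and the summed level of the 12 listed of 13 interferon-induced genes was 146, 122 and 143 RPKM in A/J eyes, 104, 101 and 112 in BALB/c eyes, and 72, 53.5 and 73.9 in C57BL/6J eyes, in the same order of strains. Of these 12 genes, 6 rose and 0 fell in A/J minus C57BL/6J, led by Ifi44 (3.63, adjusted p = 0.00018, limma), Oas2 (2.14) and Isg15 (1.78), and 4 rose and Ifit3 fell in BALB/c minus C57BL/6J. In C57BL/6J eyes Ifi44 averaged 0.6 RPKM and Oas2 0.837 RPKM, under the 1 RPKM of the filter, which they passed through the other strains. The part of the interferon-induced genes in the Zbp1 values was not tested. It was the only gene called among 9 tested of the necroptosis, pyroptosis and inflammasome list, whose median was between -0.06 and -0.04 in the 3 comparisons.

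The other calls were in A/J minus C57BL/6J. Of 26 genes of death receptor and TNF signalling, Tnfrsf1a, the main TNF receptor, averaged 18.4 ± 1.28 RPKM in A/J eyes and 29.5 ± 1.47 RPKM in C57BL/6J eyes (SD, n = 3 each; log2 change -0.56 ± 0.11, adjusted p = 0.031, limma). Tnfrsf21, a death receptor of neurons, averaged 6.4 ± 0.61 RPKM in A/J eyes and 10.5 ± 1.36 RPKM in C57BL/6J eyes (log2 change -0.57 ± 0.12, adjusted p = 0.043). The other 24 genes of that list were not called, and its median was -0.13 in A/J minus C57BL/6J, -0.05 in BALB/c minus C57BL/6J and 0.02 in A/J minus BALB/c. Of 16 genes of calpain, cathepsin and other non-caspase death of photoreceptors, the lysosomal protease gene Ctsl rose to 532 ± 110 RPKM in A/J eyes, against 279 ± 46.3 RPKM in C57BL/6J eyes (1.03 ± 0.19, adjusted p = 0.025). Hdac1, a histone deacetylase, fell to 3.7 ± 0.222 RPKM in A/J eyes, against 8.17 ± 1.25 RPKM in C57BL/6J eyes (-0.93 ± 0.13, adjusted p = 0.0054). The median of these 16 genes was 0.08 in A/J minus C57BL/6J, 0.07 in BALB/c minus C57BL/6J and -0.01 in A/J minus BALB/c. With the GC trend removed Tnfrsf1a was not called, nor with replicate number as a term in the fit. Tnfrsf21 was not called when the libraries were quantile normalized. Tnfrsf1a, Tnfrsf21 and Ctsl each lost their call when A/J 1, A/J 2, any BALB/c library or C57BL/6J 2 was left out, with adjusted p-values up to 0.30, 0.29 and 0.47 over the alternatives. Hdac1 lost it when A/J was left with 1 library, A/J 3, and in a fit of the 2 strains alone (up to 0.077).

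Summed levels of tissue markers are given here beside these values, as deposited and without a test of the sums. Such a sum is carried by its most abundant genes, so medians over the genes of a list follow. The sum over 8 rod markers was 8910 to 10200 RPKM in A/J eyes, 11000 to 11700 in BALB/c eyes and 11900 to 13700 in C57BL/6J eyes, and that over 8 lens markers 94500 to 106000 RPKM in A/J eyes, 118000 to 125000 in BALB/c eyes and 47600 to 91700 in C57BL/6J eyes. The 10 markers of microglia and macrophages summed to 70.3 to 81.2 RPKM in A/J eyes, 74.9 to 80.5 in BALB/c eyes and 104 to 121 in C57BL/6J eyes. The 7 cone markers summed to 315 to 416, 356 to 412 and 443 to 551 RPKM, and the 7 oligodendrocyte markers to 265 to 1040, 147 to 258 and 41.5 to 288 RPKM, in the same order of strains. In A/J minus C57BL/6J the median log2 change was -0.31 for rods, 0.42 for lens and -0.13 for microglia and macrophages. For cones it was -0.57 and for oligodendrocytes 1.71. In BALB/c minus C57BL/6J these 5 medians were -0.02, 0.7, 0.03, -0.43 and 0.83, in the same order of lists. The 9 markers of surface epithelium summed to 4310 to 7080 RPKM and the 8 of skeletal muscle to 916 to 1560 RPKM over all libraries. Of 11 lymphocyte and granulocyte markers only 1 was among the genes analysed, and of 8 markers of cornified epithelium 4 were, summing to 5.93 to 13.2 RPKM. Among the marker genes of rods, cones, lens, oligodendrocytes, cornified epithelium, leukocytes and proliferating cells 0 were called in any comparison. Of the surface keratins, Krt13, Krt15 and Krt4 fell in both A/J and BALB/c against C57BL/6J, and Krt13 and Krt15 also in A/J against BALB/c. The other surface markers were not called. The median over the 9 surface markers was -0.11 in A/J minus C57BL/6J, -0.31 in BALB/c minus C57BL/6J and -0.25 in A/J minus BALB/c. Over the 8 muscle markers it was 0.2, 0.1 and 0.25 in the same order, so the calls are of single genes. The complement gene C1qb of microglia fell in both A/J and BALB/c against C57BL/6J (-0.72 and -0.71), and the muscle gene Actn3 rose in A/J minus BALB/c (0.89) and fell in BALB/c minus C57BL/6J (-0.82). The keratin calls of A/J minus C57BL/6J held under every alternative run. Krt15 in BALB/c minus C57BL/6J lost its call without BALB/c 2 or BALB/c 3, and Krt4 without BALB/c 3. The keratin calls of A/J minus BALB/c and all those of C1qb and Actn3 were lost without BALB/c 1 and under several other alternatives, with adjusted p-values up to 0.37. The part of these tissues in the members' values was not tested.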

How the data were processed

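Per the labels, poly(A) RNA of whole eyes was reverse transcribed with random primers into double-stranded cDNA without strand marking. The submitters' processing notes name CASAVA 1.7, GenomeStudio and build mm9. How reads were counted, on which gene models and at what read length is not given in the sources consulted. The authors deposited a table per library without a named unit. These deposited values were read as RPKM because value times transcript length, summed, came to 108.5% to 111.7% of the total RPKM gives in 8 libraries, and to 126.6% in C57BL/6J 3. At most 29.2% of low values fell within 0.1 of a whole read at any depth tried, so counts were not recovered and no counting interval is given.

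Each library was scaled by its median-of-ratios size factor (0.9345 to 1.162), and log2 was taken after adding 0.5. Genes with 1 RPKM or more in at least 3 libraries were tested (12920, leaving out 169) with limma 3.58.1 in R 4.3.3 (trended, robust, two-sided, strain as the only term, all 9 libraries in 1 fit). Every adjusted p is from this fit, except where an alternative is named, when it is from limma on that alternative. The procedure was tested on simulated data, drawn as independent normal values with the same spread in every strain. That check does not cover the unequal spread of the strains or the GC trend of the libraries, so it gives no error rate for these data. GC content and shared stretches of 31 bases came from GENCODE M21 (GRCm38), which gave lengths for 12859 genes (98.2%). No coordinates were converted. For the GC alternative, a smooth curve of each library's deviation from the gene mean on GC content was subtracted.

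Of the members, 22 had values given in every library by rule: those called, the 4 with the highest and the 4 with the lowest log2 change per comparison, and the highest of each role. The members, lists and tests were chosen with earlier results of these data known. Pathway and marker lists are described by counts and medians. Pmaip1, also sought, is not analysed here. The values of 2 members that the rule names, and of 1 marker gene, are not reported here by name, and counts over the members and lists include them.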

Additional observations from a re-analysis of the deposited data

How the results depend on the processing

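The scaling, the pseudocount (0.1 or 1), the filter (none or 2 RPKM, which leaves out Casp12 and Ripk3) and a fit of only the 2 strains compared left 0 members called in each comparison. Over all 20 alternatives, 68 of 2514 values of single members in a comparison passed the threshold, 0 of them with a reversed sign, and 167 that did not pass changed sign. With the values as deposited the median of all genes was -0.11 in A/J minus C57BL/6J, -0.17 in BALB/c minus C57BL/6J and 0.05 in A/J minus BALB/c, and 17 of 126 member values changed sign; changes are to be read relative to that shift. It moved the called genes to 156 higher and 225 lower in BALB/c minus C57BL/6J, against 250 and 149 in the scaled values, and to 95 and 187 in A/J minus BALB/c, against 74 and 246. Leaving out 1 library at a time gave 0 to 9 members in A/J minus C57BL/6J, 0 to 1 in BALB/c minus C57BL/6J, 0 to 13 in A/J minus BALB/c and 0 to 11 in the F test, with every count above 0 coming from leaving out A/J 3. Over all genes it gave 159 to 3659, 167 to 640 and 106 to 4476 calls, against 348, 399 and 320 with all libraries. Without A/J 3 and C57BL/6J 3, 13, 5, 23 and (F test) 22 members and 5131, 1919 and 7742 genes were called. Without A/J 1 and A/J 2, 129 genes were called in A/J minus C57BL/6J and 73 in A/J minus BALB/c, and the fit of the 2 strains alone called 141 genes in A/J minus C57BL/6J; the cause was not tested. The GC correction called 0, 1 and 2 members and 2 in the F test. Counting members without overlap on scaled values, an alternative chosen after seeing the data, gave 6, 10 and 16, with 4 higher and 2 lower, 8 and 2, and 10 and 6, against 2 and 3, 2 and 9, and 12 and 3 as deposited.

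Whether replicate numbers pair the libraries could not be settled. The correlations of same-numbered deviations from the strain mean ran from -0.51 to 0.54, only that of A/J 2 with BALB/c 2 being below 0. A/J 2 correlated at 0.60 with BALB/c 1, a library of another number. Deviations from a mean of 3 libraries sum to 0, so these correlations are not independent. With the replicate block 1 member was called in A/J minus BALB/c, Bak1 (-1.06, adjusted p = 0.046, limma), and 0 in the other comparisons. The unknown depth, the unnamed unit and 3 libraries per strain limit what could be detected.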
